A study of Mus musculus with 36 samples.

Results

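The Dectin pathway loci are 8 mouse genes of fungal recognition: the lectin receptors Clec7a, Clec4n, Clec4d and Clec4e, the kinase Syk, the adaptor Card9, and the early response factors Egr2 and Egr3. Their accessible regions were taken as every peak of the deposited list (build mm10) that overlapped the body of a member gene or the 10 kb to either side of it. That gave 85 peaks of the 119751 in the whole series. Because the Clec4n, Clec4d and Clec4e windows adjoin on chromosome 6, 8 peaks lay in 2 windows and the peaks made 93 pairs of a peak and a gene. Syk had 33 peaks, Clec4d 15, Clec7a and Clec4e 11 each, Clec4n 10, Egr2 6, Egr3 4 and Card9 3. The test could be applied to 84 of them, since 1 Syk peak had too few counts.

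The assay was ATAC-seq on nuclei from 50000 cells per library, where Tn5 transposase cuts and tags DNA that is not wrapped up in closed chromatin, so that reads pile up over accessible regions. The cells were dendritic cells grown with GM-CSF (15 ng/mL) from the bone marrow of female C57BL/6J mice aged 6 to 8 weeks, and all groups share this origin. They were left unstimulated (Ctrl) or received ligands for 6 h at doses that the labels do not give. Given singly were 6 ligands: depleted zymosan, written Z, 3',3'-cGAMP, written cG, and SeV, LPS, PAM and HMW, written S, L, P and H. The 8 pairs were PL, PH, LH, PS, PcG, ScG, ZS and ZcG, and the 3 triplets were PLH, PScG and ZScG, each named by the letters of its ligands. Each of the 18 groups had 2 libraries. The labels do not say whether the 2 libraries of a group came from separate cultures or animals, so a p-value here measures the spread between these libraries, which may be technical.

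Lectin receptors of this family bind carbohydrates and lipids of fungi and mycobacteria. Clec7a encodes Dectin-1, the receptor for beta-glucan, Clec4n encodes Dectin-2, which binds mannans, Clec4d encodes the receptor MCL, and Clec4e encodes Mincle, which binds mycobacterial and fungal glycolipids. Engaged receptors recruit the tyrosine kinase Syk, which acts through the adaptor Card9 on NF-kappaB, and a calcium and NFAT arm induces Egr2 and Egr3. Zymosan is a yeast cell wall preparation rich in beta-glucan, and the labels do not say of what it was depleted. LPS is the bacterial ligand of Tlr4, and cGAMP is a cyclic dinucleotide that activates STING.

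Total counts ran from 19097027 to 39977088 per library, and 8181254 to 21985891 of them, those outside the mitochondrial genome, were used. The mitochondrial share was 61.0% in Ctrl and 58.3% to 63.0% in Z, ZcG, ScG and ZScG (group means, n = 2), against 44.4% to 54.5% in the other 13 groups. For the 13 stimulations in that lower range, ligand and mitochondrial share cannot be told apart as sources of a difference from Ctrl. All 10 dendritic and myeloid markers had an accessible start site, with a summed level of 213 to 304 CPM per library. CPM is counts scaled to a library total that was first multiplied by the library's TMM factor from edgeR. These factors ran from 0.807 to 1.14, with 0.816 and 0.866 in the Ctrl libraries. Levels, and their place above or below the Ctrl libraries, are given on this TMM scale. An accessible start site was also present for all 5 macrophage markers, 2 of 5 neutrophil markers (Camp and S100a8) and 1 of 3 stromal markers. The stromal one held 2.39 to 6.65 CPM per library. No peak covered the start of any T cell, B cell, NK cell or erythroid marker. In a bulk library, a different share of cells with an open region and a different degree of opening per cell cannot be told apart.

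The annotated upstream regions of the members carried few of the motifs searched. For 6 members, 12 promoters could be read from RefSeq (GRCm38.p6) as the 250 bases before an annotated start. No match to AP-1 (TGANTCA), CRE (TGACGTCA), PU.1 (GAGGAAGT), ISRE (GAAA, any 2 bases, GAAA) or EGR (GCGTGGGCG) was found in them on either strand, and these letters are in 6.75%, 1.55%, 2.44%, 2.98% and 0.536% of all 32851 promoters of that length. The matches were at Egr2: an NF-kappaB motif before its outermost start (5.0% of all promoters) and a CArG box, the binding motif of serum response factor, before its other starts (1.47% of all promoters). The 3 receptor promoters below are shown because they lie inside the start peaks that did and did not open, and the Egr2 windows because they hold the CArG boxes, printed in capitals and beginning 72 bases before a start. The promoters are chr6:123289872-123290121 (minus strand), chr6:123261857-123262106 (plus strand) and chr6:129472786-129473035 (minus strand), and the Egr2 windows are chr10:67537484-67537513 and chr10:67537787-67537816 (plus strand), all printed 5′ to 3′.
Clec4e promoter: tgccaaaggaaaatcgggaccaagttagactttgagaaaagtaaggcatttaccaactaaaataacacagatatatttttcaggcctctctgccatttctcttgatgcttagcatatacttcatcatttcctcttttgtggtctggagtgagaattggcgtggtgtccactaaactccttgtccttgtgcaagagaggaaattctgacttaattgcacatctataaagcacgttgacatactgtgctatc
Clec4d promoter: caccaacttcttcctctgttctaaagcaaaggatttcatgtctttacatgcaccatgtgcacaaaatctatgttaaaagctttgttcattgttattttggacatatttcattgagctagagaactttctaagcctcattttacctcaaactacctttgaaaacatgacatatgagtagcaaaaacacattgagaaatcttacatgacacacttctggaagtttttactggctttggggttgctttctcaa
Clec7a promoter: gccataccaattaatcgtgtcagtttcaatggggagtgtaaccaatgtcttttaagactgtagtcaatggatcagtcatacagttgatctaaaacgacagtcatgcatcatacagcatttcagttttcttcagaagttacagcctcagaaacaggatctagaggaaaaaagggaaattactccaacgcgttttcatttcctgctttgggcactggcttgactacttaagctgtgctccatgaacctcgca
Egr2 start window, upstream: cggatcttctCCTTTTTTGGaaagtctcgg
Egr2 start window, downstream: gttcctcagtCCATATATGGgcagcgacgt
The GC content of these receptor promoters was 39.6% for Clec4e, 35.2% for Clec4d and 41.6% for Clec7a, against a median of 52.4% over all promoters. A match or its absence describes only the letters in these windows.

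Over the 18 groups, 48 of the 84 tested member peaks differed (57.1%), against 62.5% of all 119464 tested peaks, by edgeR's quasi-likelihood test with Benjamini-Hochberg adjusted p-values under 0.05. By gene, these were 7 of 11 at Clec7a, 5 of 10 at Clec4n, 4 of 15 at Clec4d, 9 of 11 at Clec4e, 18 of 32 at Syk, 1 of 3 at Card9, 5 of 6 at Egr2 and 2 of 4 at Egr3. Against Ctrl, 55 peaks were called in at least 1 of the 17 comparisons: 33 were called higher, 20 lower, and 2 both ways. That is 65.5% of the members, beside 66.6% of all tested peaks, and of those called over all peaks 48.8% were called higher only and 47.5% lower only. The same 2 Ctrl libraries enter all 17 comparisons. At Clec4e, 8 of 11 peaks were called, each of them higher. At Syk, 15 peaks were called higher in some comparison and 4 lower, and at Clec4d 1 was called higher and 4 lower.

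PAM was the single ligand with the most calls among the members, 25 of 84 (20 higher and 5 lower), where 20.5% of all tested peaks were called. LPS called 18 (13 higher, 5 lower) beside a background of 22.3%, and HMW called 7 (5 and 2) beside 10.7%. SeV called 18 (15 and 3) beside 27.9%, and cGAMP called 20 (17 and 3) beside 23.3%. Depleted zymosan called 7 (6 and 1) beside 5.91%. Member shares for these 6 ligands ran from 8.33% to 29.8%, beside 5.91% to 27.9% of all peaks, so the counts alone do not set the members apart.

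The pairs called 25 members in PL (19 higher, 6 lower; 27.3% of all peaks), 23 in PH (17 and 6; 26.3%) and 16 in LH (10 and 6; 21.8%). PS called 27 (22 and 5, beside 33.4%), PcG 23 (19 and 4, beside 32.9%) and ScG 21 (12 and 9, beside 27.7%). ZS called 17 (11 and 6, beside 28.3%) and ZcG 18 (12 and 6, beside 21.6%). Among the triplets, PLH called 21 (15 and 6, beside 29.7%), PScG 26 (18 and 8, beside 37.1%) and ZScG 22 (15 and 7, beside 32.3%). The share of higher calls was 57.1% to 85.7% among the members over the 17 comparisons and 48.8% to 70.3% among all peaks. The median log2 fold change over the 84 peaks was 0.315 in P, 0.31 in S, 0.105 in Z and -0.002 in ScG, while over all peaks it lay between -0.04 and 0.04 in each of the 17.

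Scaling by total counts outside the mitochondrial genome, in place of TMM, moved the median log2 fold change of all peaks by -0.06 to 0.42 over the 17 comparisons. It moved the balance of member calls in 13 of them by more than 10 percentage points: 20 of 25 higher became 29 of 30 in P, 13 of 18 higher became 28 of 30 in L, 5 of 7 higher became 8 of 9 in H, 15 of 18 higher became 29 of 30 in S, 17 of 20 higher became 30 of 31 in cG, 19 of 25 higher became 30 of 31 in PL, 17 of 23 higher became 30 of 32 in PH, 10 of 16 higher became 19 of 22 in LH, 22 of 27 higher became 33 of 35 in PS, 12 of 21 higher became 16 of 22 in ScG, 11 of 17 higher became 21 of 24 in ZS, 15 of 21 higher became 28 of 29 in PLH and 18 of 26 higher became 30 of 34 in PScG.

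**Figure D1:**
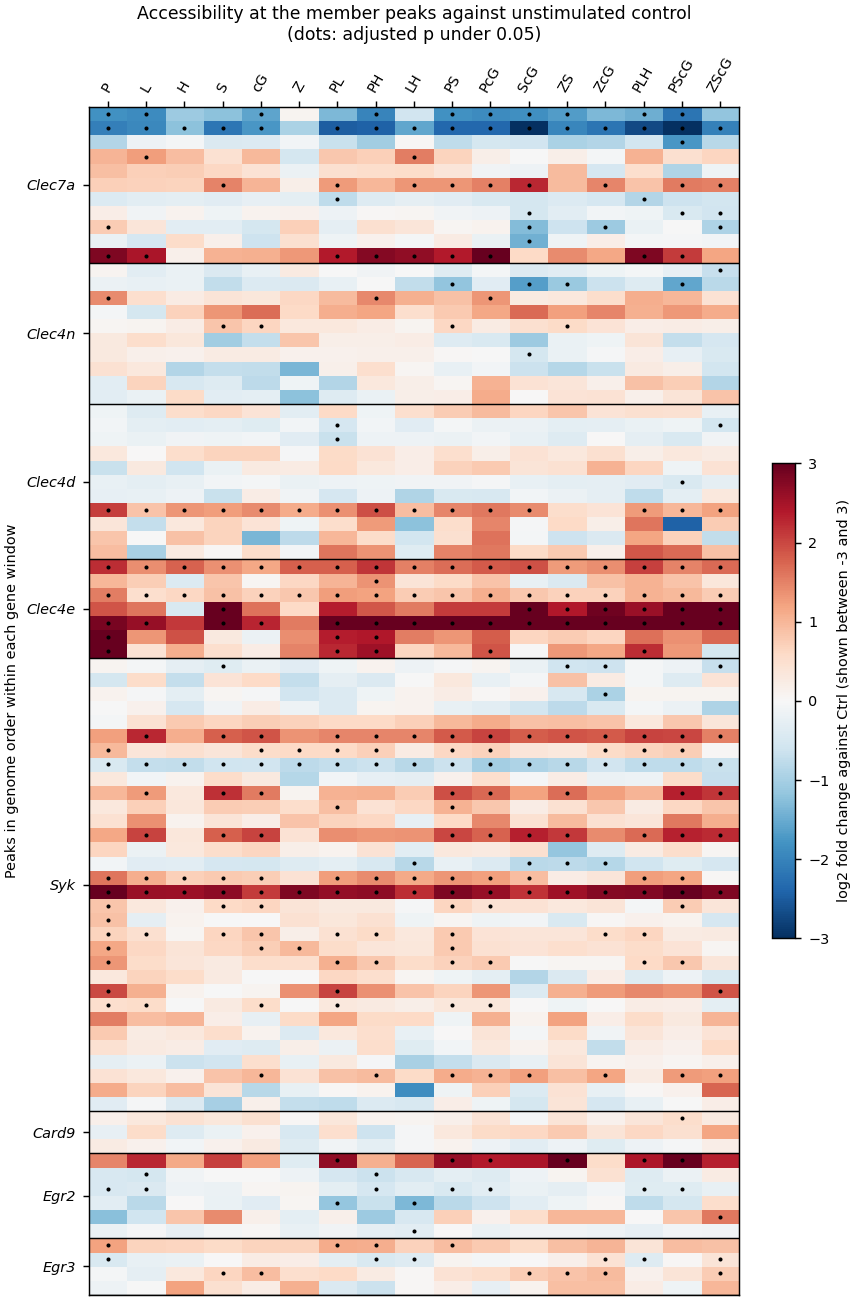
Log2 fold change against Ctrl (colour, limited to -3 to 3) of each tested member peak (rows, by gene and in genome order) in the 17 stimulated groups (columns, 2 libraries each), with dots on peaks called by edgeR. A peak in 2 windows is drawn once, under the first, so the Clec4e 3′ peak is the red row of Clec4d. The Clec4e rows carry only higher calls, and the 16 lower calls of the peak past the Clec7a 3′ end form the blue row near the top.

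Clec4e (Mincle) was the receptor locus that opened most broadly. The peak over its start (chr6:123288782-123291208) held 13.8 and 17.2 CPM in the 2 Ctrl libraries and 46.1 and 43.8 in the P libraries. Depleted zymosan gave 27.3 and 27.4 CPM, and LPS gave 22.6 and 21.2. All 34 stimulated libraries lay above both Ctrl libraries. The log2 fold change was 1.53 ± 0.13 (SE) in P (adjusted p = 1.38e-21), 0.82 ± 0.14 in Z (5.5e-06) and 0.50 ± 0.14 in L (0.00316), and the peak was called higher in 17 of 17 comparisons under TMM and under all 3 other scalings. Without Ctrl replicate 1, the call was lost in L (0.35, adjusted p = 0.151) and in H (0.48, adjusted p = 0.0707).

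Ordered by mean level, P stood first at the Clec4e start, 0.285 log2 units above PL, a gap larger than the pooled SD of 0.12. PL, PH, PcG, PLH and PScG followed, and none of these neighbours differed by more than that SD. H and L stood lowest of the stimulated groups, with L 0.51 above Ctrl. Every group with PAM apart from PS stood above every group without it in this order, and PS stood 1 place below S.

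At the other end of Clec4e, a peak of 2724 bp over the 3′ end (chr6:123279164-123281887, also inside the Clec4d window) rose further. Its level was 5.35 and 3.955 CPM in Ctrl, 19.0 and 19.7 in P, 17.1 and 18.1 in PH, and 9.975 and 10.1 in Z. The P libraries were the highest of all 36, and 33 of the 34 stimulated libraries lay above both Ctrl libraries. The log2 fold change was 2.06 ± 0.21 in P (adjusted p = 2.98e-16) and 1.11 ± 0.23 in Z (0.000371), with 15 of 17 comparisons called higher. ZS (0.52, adjusted p = 0.099) and ZcG (0.41, adjusted p = 0.253) were not called, with libraries between 5.12 and 7.42 CPM. The Z call was lost without Ctrl replicate 2 (0.90).

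Another peak inside Clec4e (chr6:123286176-123288049), 2.76 kb from the start, held 1.97 and 1.54 CPM in Ctrl and 9.0 and 7.37 in P. It was called higher in 17 of 17 comparisons, from 1.17 in cG to 2.22 ± 0.32 in P (adjusted p = 3.69e-09). All 34 stimulated libraries again lay above both Ctrl libraries. Upstream of the gene, a low peak 4.14 kb before the start, chosen after its values were seen, was called higher in 15 of 17. Its Ctrl libraries held 0 and 0.289 CPM and its stimulated libraries 0.21 to 3.24, so its fold changes rest on few counts.

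The start peaks of the neighbouring receptors did not follow Clec4e. At Clec4d (MCL), which lies next to Clec4e, the peak over the start (chr6:123261492-123262819) held 7.10 and 9.36 CPM in Ctrl, 8.16 and 7.01 in P, and 8.27 and 5.04 in Z. These libraries overlap. The peak was called in 1 of 17 comparisons, lower in PL (-0.67 ± 0.25, adjusted p = 0.0294), and the test over all groups gave an adjusted p of 0.567. That call was lost under scaling by total counts (-0.35) and without Ctrl replicate 2 or either PL library (-0.79 to -0.45), and under total counts the sign was above 0 in 10 of the 17 comparisons against 1 under TMM.

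At Clec4n (Dectin-2), every lower call fell in a mixture that holds SeV. At the gene end whose peak lies at chr6:123229585-123230082, Ctrl held 4.26 and 2.12 CPM, ScG 1.21 and 0.765, and PScG 1.17 and 0.996. The ScG and PScG libraries lay below both Ctrl libraries, which were themselves far apart. The calls were lower in ScG (-1.65 ± 0.47, adjusted p = 0.00355), PScG (-1.55 ± 0.44, 0.00295), PS (-1.18 ± 0.40, 0.0158) and ZS (-1.12 ± 0.44, 0.0429). All 4 were lost without Ctrl replicate 1, where the values were -1.08, -0.975, -0.605 and -0.55. Under total counts 2 of the 4 calls were left, and 6 of the 17 signs at this Clec4n peak were above 0 against none under TMM.

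A peak outside that end of Clec4n (chr6:123227421-123228227) was called lower in ZScG alone (-0.69 ± 0.20, adjusted p = 0.00362), with 9.16 and 8.41 CPM against 14.9 and 13.6 in Ctrl. That call was kept under total counts (-0.62), where 12 of the 17 signs at this Clec4n peak were above 0 against 2 under TMM. The peak between Clec4n and Clec4d (chr6:123252668-123253264) was called lower in ScG (-0.52 ± 0.20, adjusted p = 0.0332), at 7.63 and 9.07 CPM against 11.9 and 12.0. Under total counts that peak was not called in ScG (-0.45) and was called higher in 8 of the 17 comparisons, and under loess it was not called in ScG (-0.48). The ScG call there was also lost without Ctrl replicate 1, Ctrl replicate 2 or ScG replicate 1 (-0.52 to -0.40). Within Clec4n, a peak at chr6:123244048-123244666, chosen after its values were seen, was called higher in 4 of 17 comparisons, and its highest libraries were those of SeV (14.85 and 13.8 CPM against 8.52 and 7.62 in Ctrl).

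At Clec7a (Dectin-1) the start was called in few groups, the 3′ flank closed and an upstream peak opened. The start peak (chr6:129472507-129473191) held 13.1 and 13.2 CPM in Ctrl, 14 and 16.4 in P, and 16.7 and 12.3 in Z, and it was not called in P or Z. It was called lower in ScG (-0.52 ± 0.19, adjusted p = 0.0343, libraries at 9.12 and 9.29), ZScG (-0.58 ± 0.20, 0.0188) and PScG (-0.45 ± 0.19, 0.0468). Each of these calls was lost without either Ctrl library (-0.58 to -0.45), under abundance-dependent offsets (loess) all 3 were lost, and under total counts the ScG and PScG calls were lost. Among the 17 comparisons, the value was below 0 in 11 under TMM and in 5 under total counts.

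Beyond the 3′ end of Clec7a, 12.0 kb from the start, the peak at chr6:129460210-129461280 closed in nearly every group. It held 11.4 and 7.81 CPM in Ctrl, 2.90 and 1.73 in P, 5.25 and 4.72 in Z, and 1.02 and 1.20 in ScG. All 34 stimulated libraries were below both Ctrl libraries. It was called lower in 16 of 17 comparisons, with a log2 fold change of -3.10 ± 0.40 in ScG (adjusted p = 6.21e-11) and -2.05 ± 0.35 in P (7.97e-07). Z was the comparison not called (-0.94, adjusted p = 0.0759), and the H call was lost without Ctrl replicate 1 (-0.95) or H replicate 1 (-1.01). The calls numbered 16 under each of the 4 scalings. The Ctrl mean stood 0.90 log2 units above Z, the next group, and 0.90 is larger than the pooled SD of 0.37, while no other pair of neighbours in the order differed by more than that.

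Upstream of Clec7a, a peak 1.89 kb before the start (chr6:129474358-129474997) was higher in P and lower in mixtures that hold cGAMP without PAM. It held 5.24 and 6.37 CPM in Ctrl, 10.4 and 9.32 in P, 10.4 and 8.81 in Z, and 2.88 and 1.75 in ScG. The P and Z libraries lay above both Ctrl libraries and the ScG libraries below. P was called higher (0.76 ± 0.26, adjusted p = 0.0216) and Z was not (0.71 ± 0.27, adjusted p = 0.0923), while ScG (-1.31 ± 0.32, 0.000504), ZcG (-1.09 ± 0.32, 0.00586) and ZScG (-0.91 ± 0.31, 0.016) were called lower. The P call was lost without Ctrl replicate 1 (0.63) or P replicate 1 (0.68), the ZcG call without Ctrl replicate 2 (-0.94) or ZcG replicate 2 (-0.84), and the ZScG call without Ctrl replicate 2 (-0.76) or either ZScG library (-0.94 and -0.89). Under total counts this Clec7a peak was called higher in 4 comparisons and lower in 3, and 11 of the 17 signs were above 0 against 7 under TMM.

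A small peak 5.79 kb upstream of Clec7a (chr6:129478360-129478783) was chosen after its values were seen. It held 0.437 and 0.482 CPM in Ctrl, 2.29 and 4.19 in P, 2.54 and 2.59 in L, and 0.508 and 0.517 in H. The P and L libraries lay above both Ctrl libraries by a wide margin, and the H libraries lay just above them. It was called higher in all 9 groups that hold PAM or LPS, by 2.79 ± 0.55 in P (adjusted p = 2.1e-05), 2.45 ± 0.56 in L (0.000265) and 3.05 ± 0.53 in PcG (7.31e-07), and in none of the other 8. The PScG call (2.11) was lost without PScG replicate 2 (1.32). Whether the other 8 groups differ from these 9 was tested only for PAM against zymosan.

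Syk, the kinase shared by these receptors, had a peak inside the gene that was called higher in most comparisons and a start peak that was called lower in all 17. The peak at chr13:52599735-52600836, inside the gene and 3.4 kb past its second annotated start, had the lowest p of the members over the 18 groups (adjusted p = 7.91e-35). Ctrl held 10.4 and 14.8 CPM, P 34.6 and 42.9, L 24.1 and 29.8, and Z 17.3 and 17.1. The 14 libraries with PAM ranged from 26.8 to 42.9 (median 31.5), the 8 with zymosan from 12.0 to 19.7 (median 14.8), and the other 12 stimulated libraries from 18.5 to 29.8 (median 23.0). The zymosan and PAM ranges do not overlap.

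Against Ctrl, the Syk peak was called higher in 13 of 17 comparisons, by 1.62 ± 0.15 in P (adjusted p = 9.18e-20), 1.10 ± 0.15 in L (3.49e-10) and 0.71 ± 0.15 in H (0.000374). The 4 groups not called were Z (0.44, adjusted p = 0.0862), ZS (0.23, 0.308), ZcG (0.37, 0.0939) and ZScG (0.03, 0.926), which are the 4 that hold zymosan. Z and ZcG passed the threshold without Ctrl replicate 2 (0.73 and 0.65), H lost its call without Ctrl replicate 1 (0.49), and ZS passed under total counts (0.42). The ZScG value turned below 0 without Ctrl replicate 1 (-0.20) or ZScG replicate 2 (-0.08).

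Deeper in Syk, 39.5 kb past the second start, the largest member peak by level (chr13:52635731-52636961) held 32.8 and 33.2 CPM in Ctrl, 44.3 and 48.5 in P, 43.5 and 52.6 in cG, and 28.35 and 36.4 in Z. The Z libraries lay on both sides of Ctrl. It was called higher in 6 comparisons, by 0.55 ± 0.11 in L (adjusted p = 7.02e-05), 0.54 ± 0.12 in cG (8.31e-05), 0.49 ± 0.12 in P (0.000453), and 0.33 to 0.34 in PL, PS and PcG. The last 3 calls were lost without either Ctrl library (0.319 to 0.345), and the L call without L replicate 2 (0.35). Other scalings called it in 8 to 11 comparisons.

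The upstream start of Syk was lower in every stimulated group. Its peak (chr13:52582505-52583809) held 18.7 and 20.1 CPM in Ctrl, 15.3 and 12.9 in P, 12.3 and 10.4 in Z, and 9.48 and 9.50 in PcG. On the TMM scale, all 34 stimulated libraries were below both Ctrl libraries, between 9.48 and 15.3. It was called lower in 17 of 17 comparisons, from -0.46 ± 0.17 in P (adjusted p = 0.0382) to -1.03 ± 0.17 in PcG (2.19e-07). Under total counts the sign stayed below 0 in all 17 but 7 were called, and in P the value was -0.14. The P call was also lost without either Ctrl library (-0.51 and -0.41) or P replicate 2 (-0.34).

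The second start of Syk (chr13:52596690-52597549) held 6.12 and 6.08 CPM in Ctrl, 5.19 and 6.28 in P and 3.34 and 3.57 in LH. Calls were lower in LH (-0.82), ScG (-0.81), ZS (-0.79) and ZcG (-0.86), with adjusted p-values of 0.0315 to 0.0417. The test over all groups gave 0.221, each of the 4 calls was lost without any of the libraries it uses (-0.87 to -0.74), and under total counts 6 of the 17 signs turned above 0. Of the 32 tested Syk peaks, 15 were called higher in at least 1 comparison. Of all 119464 tested peaks, 38874 were called higher only and 2942 both ways. A low peak 4.86 kb past the second start, chosen after its values were seen, was called higher in 17 of 17, with 0 and 0.386 CPM in Ctrl and 1.14 and 2.53 in P.

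**Figure D2:**
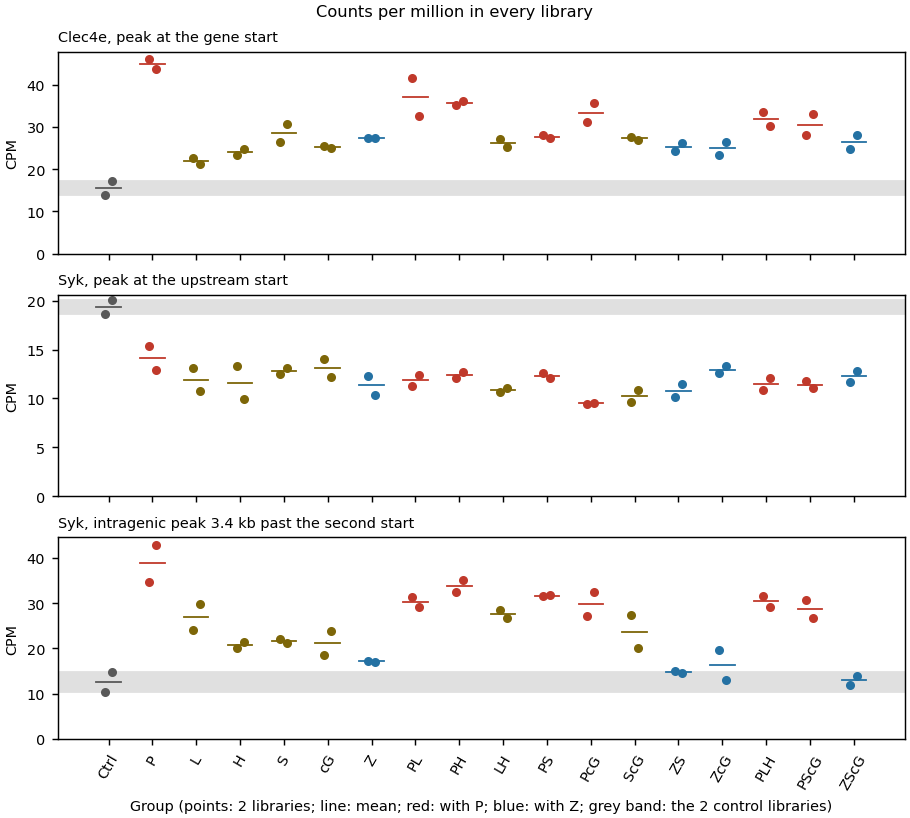
Level in CPM (vertical axis from 0) of the Clec4e start peak, the upstream Syk start and the Syk peak 3.4 kb past the second start in each library of the 18 groups (points, with a line at the mean; red with PAM, blue with zymosan; grey band, the Ctrl libraries). All levels are on the TMM scale. At Clec4e P stands highest, at 46.1 and 43.8 against 13.8 and 17.2 CPM in Ctrl. At the Syk start all 34 stimulated libraries lie below the band on that scale, and in the last panel the PAM and zymosan points do not overlap.

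Card9, the adaptor downstream of Syk, had 1 call among its 3 peaks over the 17 comparisons. Its start peak (chr2:26359783-26361460) held 15.6 and 15.05 CPM in Ctrl, 17.5 and 18.8 in P, 19.3 and 17.7 in cG, and 11.4 and 12.0 in Z. It was called in 0 of 17 comparisons by edgeR and 0 by DESeq2, with an unadjusted p under 0.05 from edgeR in 2, and in 5, all higher, under scaling by total counts. The peak at the other end of Card9 (chr2:26351426-26352616), which also overlaps the gene Dnlz, was called higher in PScG (0.53 ± 0.20, adjusted p = 0.0247), at 13.1 and 12.5 CPM against 8.085 and 9.55. That call was lost without Ctrl replicate 1 (0.42) or either PScG library (0.50 and 0.57), and under total counts 10 comparisons were called higher. The remaining low peak of 0.822 CPM on average was called in none.

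Egr2 and Egr3 encode zinc finger factors induced early after receptor engagement. The wide peak over most Egr2 starts (chr10:67536645-67538610), which holds the CArG boxes shown above, held 28.2 and 33.7 CPM in Ctrl, 21.4 and 22.8 in P, 30.8 and 34.6 in Z, and 27.2 and 31.3 in ZcG. The P libraries were below both Ctrl libraries, while the Z libraries overlapped them. It was called lower in P (-0.49 ± 0.13, adjusted p = 0.00211), L (-0.44 ± 0.13, 0.0052), PH (-0.49 ± 0.13, 0.00125), PS (-0.46 ± 0.12, 0.00163), PLH (-0.37), PScG (-0.36) and PcG (-0.32). All 7 calls were lost without Ctrl replicate 2 (-0.36 to -0.18) and all 7 under total counts, where PcG (0.10) and PScG (0.00) turned above 0.

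The peak over the outermost Egr2 start (chr10:67535201-67536520) was called lower in L (-0.52 ± 0.20, adjusted p = 0.0408) and PH (-0.64 ± 0.20, 0.00842), with 7.96 and 7.70 CPM in PH against 12.35 and 12.1 in Ctrl. ZcG was the highest group there, at 15.6 and 17.8 CPM, and was not called. Both falls were lost under total counts (-0.10 and -0.31), and 9 of the 17 signs there were above 0 against 3 under TMM. Without either Ctrl library the L call was lost, and the PH call was lost without Ctrl replicate 1 (-0.624) or PH replicate 2 (-0.615). At 1.07 kb past an Egr2 start (chr10:67538653-67539352), calls were lower in PL (-1.15) and LH (-1.35), and a low peak at the 3′ end was called higher in ZScG (1.59, adjusted p = 0.0471). The PL call was lost without either Ctrl library or PL replicate 1 (-0.79), the LH call without LH replicate 2 (-1.25), and the ZScG call without either Ctrl library or ZScG replicate 1 (1.06).

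At Egr3, the large peak beside the gene (chr14:70074404-70076517) moved in opposite directions under different ligands. Ctrl held 24.6 and 27.2 CPM, P 17.55 and 20.1, PH 19.9 and 17.7, ZcG 34.4 and 35.8, and ZScG 35.6 and 32.3. The P and PH libraries lay below both Ctrl libraries and the ZcG and ZScG libraries above both. It was called lower in P (-0.46 ± 0.14, adjusted p = 0.00679), PH (-0.47), LH (-0.38) and PLH (-0.40), and higher in ZcG (0.44 ± 0.13, 0.00912) and ZScG (0.39 ± 0.13, 0.0162). The 4 lower calls were lost under total counts (-0.14 to -0.04) and without Ctrl replicate 2 (-0.39 to -0.31), and the 2 higher ones without Ctrl replicate 1 (0.37 and 0.32).

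A smaller peak next to it (chr14:70076542-70077198) ended just outside the annotated Egr3 body. It held 5.68 and 5.40 CPM in Ctrl, 9.87 and 11.3 in cG, 11.35 and 10.2 in ZcG, and 6.03 and 4.55 in P. Under TMM it was called higher in 6 comparisons, cG (0.94 ± 0.23, adjusted p = 0.00109), ZcG (0.96 ± 0.24, 0.00139), ZS (0.86), ScG (0.77), ZScG (0.77) and S (0.63). These are the groups with SeV or cGAMP and without PAM. DESeq2's size factors and loess each gave 7 higher calls and total counts gave 10, so groups outside this set were called there. The S call was lost without any of its 4 libraries (0.58 to 0.68). ScG and ZScG also lost theirs without Ctrl replicate 2 (both 0.73), and ZScG without ZScG replicate 2 (0.46). PS, PcG and PScG were not called under TMM. Set against ZS, ZcG and ZScG, they differed by -0.41, -0.42 and -0.37 in edgeR (adjusted p = 0.276, 0.236 and 0.429), and none was called. Their difference from S, cG and ScG was not tested.

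An upstream or flanking peak of each Egr gene, chosen after its values were seen, was called higher. At Egr3, a peak in the outer flank (chr14:70067778-70068240) held 1.31 and 2.12 CPM in Ctrl and 4.425 and 3.61 in P. The P libraries lay above both Ctrl libraries. It was called higher in P (1.21 ± 0.38, adjusted p = 0.0126), PL (1.12), PH (1.08) and PS (0.93), each lost without Ctrl replicate 1 (0.64 to 0.92) and without at least 1 library of its own group (P replicate 1, PL replicate 1, PH replicate 2 and either PS library, 0.72 to 1.055), and the test over all groups gave 0.308. At Egr2, a low peak 5.48 kb upstream (chr10:67529905-67530125) had 2 and 1 reads in the Ctrl libraries (0.2185 and 0.0965 CPM) against 28 and 15 in PScG (2.51 and 1.07 CPM). It was called higher in PScG (3.44 ± 0.91, adjusted p = 0.00111), ZS (3.14), PL, PS, PcG and PLH, in 3 comparisons under loess, and all but the PScG call were lost without Ctrl replicate 2 (1.9 to 2.66). These Egr2 fold changes rest on 3 Ctrl reads.

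**Figure D3:**
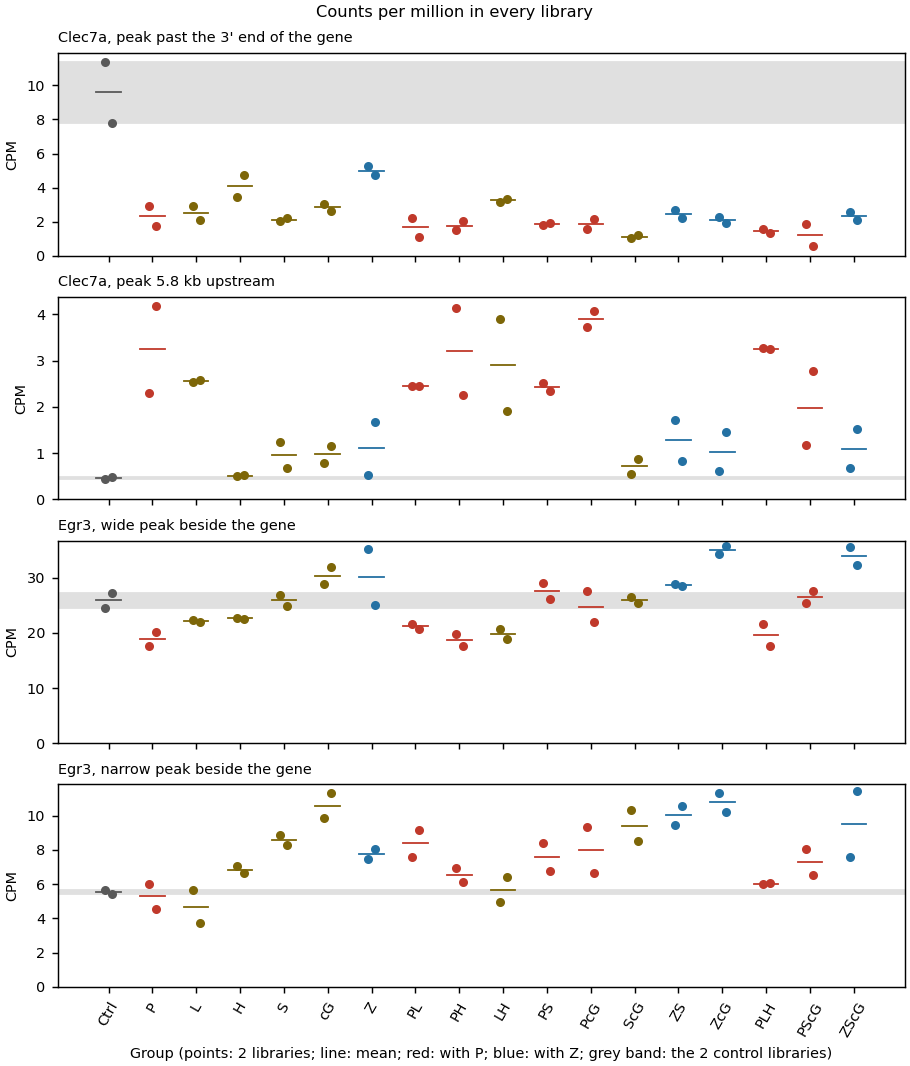
Level in CPM (vertical axis from 0) of the peak past the Clec7a 3′ end, the peak 5.79 kb upstream of Clec7a and the large and small Egr3 peaks in each library of the 18 groups (points, with a line at the mean; red with PAM, blue with zymosan; grey band, the Ctrl libraries). The first is highest in Ctrl, at 11.4 and 7.81 CPM, the next is high where PAM or LPS is present, and the large Egr3 peak is below the band in P and above it in ZcG and ZScG.

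PAM in place of depleted zymosan was compared alone and beside the same partners. P against Z called 14 of 84 members, 10 higher with PAM and 4 lower, where 11.1% of all peaks were called and 5.11% were called higher. PcG against ZcG called 11 (9 higher), beside 9.88% of all peaks and 4.69% in the higher direction. PS against ZS called 5, all higher, beside 7.16% and 4.18%, and PScG against ZScG called 4, all higher, beside 4.9% and 3.12%. The 4 comparisons share no library, since each uses its own 2 groups.

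The Syk peak 3.4 kb past the second start was higher with PAM in all 4. The differences were 1.17 ± 0.14 in log2 for P against Z (adjusted p = 2.48e-11), 1.10 ± 0.14 for PS against ZS (2.82e-10), 0.87 ± 0.14 for PcG against ZcG (1.22e-06) and 1.15 ± 0.15 for PScG against ZScG (3.77e-09). The Syk peak 39.5 kb past that start was also higher in all 4, by 0.51 ± 0.12 (0.000723), 0.46 ± 0.11 (0.00353), 0.33 ± 0.12 (0.0482) and 0.50 ± 0.12 (0.00451). For this second Syk peak every comparison lost its call without at least 1 library, namely Z replicate 1 (0.35), PS replicate 2 or ZS replicate 2 (0.44 and 0.43), any of the 4 libraries of PcG and ZcG (0.25 to 0.42), and PScG replicate 2 or ZScG replicate 2 (0.49 and 0.39).

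The Clec4e 3′ peak was higher with PAM in 3 of the 4, by 0.95 ± 0.19 for P against Z (adjusted p = 0.000101), 0.95 ± 0.20 for PS against ZS (0.000285) and 1.17 ± 0.21 for PcG against ZcG (7.24e-06). For PScG against ZScG the Clec4e value was -0.22 ± 0.21 (0.652), and it turned above 0 under total counts (0.08) and without ZScG replicate 2 (0.035). The Clec4e start peak was higher in P than in Z (0.72 ± 0.12, 4.24e-06) and in PcG than in ZcG (0.42 ± 0.13, 0.0173), the latter lost without PcG replicate 2 (0.32) or ZcG replicate 1 (0.33). The PS against ZS call at the 3′ peak was lost without ZS replicate 2 (0.79).

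At the other receptors and the effectors, fewer differences passed. Clec7a was lower with PAM past its 3′ end in P against Z (-1.10 ± 0.37, adjusted p = 0.0337, lost under total counts and without P replicate 2 or either Z library, -1.18 to -0.78). It was higher 5.79 kb upstream in P against Z (1.49 ± 0.48, 0.0243) and PcG against ZcG (1.9 ± 0.47, 0.00238), the first lost without P replicate 2 (0.99) or Z replicate 1 (0.95) and the latter without ZcG replicate 1 (1.42). The Card9 start was higher in P than in Z (0.63 ± 0.17, 0.00549), with libraries at 17.5 and 18.8 against 11.4 and 12.0 CPM. Leaving out P replicate 2 (0.58) or Z replicate 1 (0.60) ended the Card9 call.

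The called peaks of Egr3 and Egr2 were lower with PAM than with zymosan. The large Egr3 peak was lower with PAM in P against Z (-0.67 ± 0.14, adjusted p = 0.000109) and PcG against ZcG (-0.50 ± 0.13, 0.00326). Of the Egr2 starts, the wide peak was lower in P than in Z (-0.57 ± 0.13, 0.000642) and the outermost lower in PcG than in ZcG (-0.84 ± 0.19, 0.00058). Under total counts all 4 of these calls at Egr2 and Egr3 were lost (-0.31 and -0.02 at Egr3, -0.22 and -0.36 at Egr2), and there all called members in the 4 comparisons were higher with PAM (23, 13, 27 and 12). The median log2 difference of all peaks under total counts was 0.34, 0.211, 0.483 and 0.302 in the same order. Without Z replicate 1 the P against Z call at Egr3 was lost (-0.41), and without Z replicate 2 that at Egr2 (-0.48). The PcG against ZcG call at Egr3 was lost without PcG replicate 2 (-0.35) or ZcG replicate 2 (-0.47).

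Other measures moved with this contrast. The mitochondrial share was 49.5% in P against 61.7% in Z, 45.8% in PS against 54.5% in ZS, 45.1% in PcG against 63.0% in ZcG, and 45.1% in PScG against 58.3% in ZScG. Summed over 5 macrophage markers, the start sites held 63.1 to 88.6 CPM in the libraries with PAM and 52.0 to 69.0 in those with zymosan. The single markers did not all move alike. Against Ctrl, 2 were called higher and 0 lower in P, where the median log2 fold change was -0.094. In PS, PcG and PScG 1 was called higher and 1 lower. In Z 0 were called, and in ZS, ZcG and ZScG 1, 3 and 2 were called lower and 0 higher. The 2 detected neutrophil markers summed to 43.7 and 51.9 in P, 43.7 and 39 in Z, and 20 and 20.4 in ZScG. The part of these measures in the PAM and zymosan difference was not tested.

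**Figure D4:**
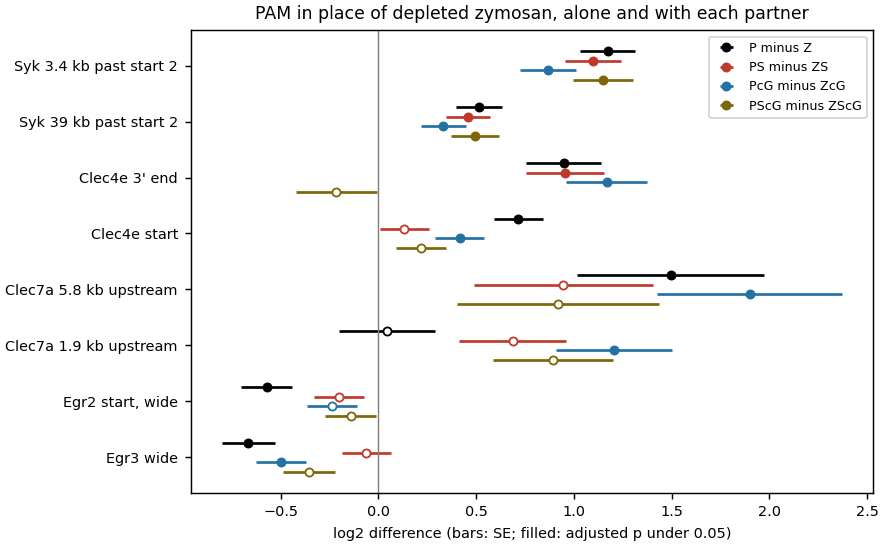
Log2 difference (points; bars, SE; filled, adjusted p under 0.05) between PAM and depleted zymosan, alone and beside SeV, cGAMP or both, at 8 member peaks. The Syk peak 3.4 kb past the second start lies between 0.87 and 1.17 in all 4 comparisons, and the Egr2 and Egr3 points lie below 0.

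Depleted zymosan added to SeV, cGAMP or both changed few members, most of them lower. ZS against S called 4 members, all lower, where 2.53% of all peaks were called. ZcG against cG called 3, all lower, beside 2.87% (20, all lower, under total counts), and ZScG against ScG called 2, both at Syk and 1 in each direction, beside 0.772%. For ZcG against cG, the median log2 difference of all peaks under total counts was -0.383. At the Syk peak 3.4 kb past the second start, S held 22.1 and 21.2 CPM and ZS 15.05 and 14.6, a difference of -0.55 ± 0.15 (adjusted p = 0.0172). ScG held 27.35 and 20.1 and ZScG 12.0 and 13.9 (-0.89 ± 0.16, 0.000223), while ZcG against cG was not called (-0.38, adjusted p = 0.162). The added zymosan groups lay below their partners without overlap in ZS and ZScG.

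The Syk peak 39.5 kb past that start was lower in ZS than in S (-0.40 ± 0.12, adjusted p = 0.0329) and in ZcG than in cG (-0.54 ± 0.12, 0.00159). The Clec4e 3′ peak was lower in ZS than in S (-0.74 ± 0.21, 0.0234) and in ZcG than in cG (-0.995 ± 0.21, 0.0015), and the Card9 start was lower in ZcG than in cG (-0.63 ± 0.17, 0.0187). Most of these calls were lost when 1 library was left out. Both ZS against S calls at Syk were lost without any of their 4 libraries, the ZScG call without ScG replicate 1 (-0.64), the Clec4e calls without S replicate 1 or ZS replicate 2 (-0.55 and -0.58) and without ZcG replicate 2 (-0.76), and the Card9 call without any of its 4 libraries (-0.69 to -0.56). Leaving out 1 library at a time left 0 to 1 calls in ZS against S, 1 to 2 in ZcG against cG and 0 to 2 in ZScG against ScG.

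Each pair was also set against the sum of its 2 single ligands on the log2 scale, where 0 means that the log2 changes add. Most calls among the members were below 0, that is, the pair stood lower than the sum of its parts, which can be a smaller rise or a turn to a fall. PL called 12 (11 below 0), where 6.75% of all peaks were called and 4.18% below 0. PH called 4, all below 0 (1.55% and 1.08% of all peaks), LH called 5 (4 below 0, beside 4.88% and 2.62%), and PS called 7 (6 below 0, beside 4.59% and 2.9%). PcG called 11, all below 0 (3.27% and 2.17%), and ScG called 11, all below 0 (14.4% and 7.52%). ZS called 4 and ZcG 5, all below 0, beside 3.43% and 2.6%, and 2.49% and 1.74%. The 8 pair tests share the Ctrl libraries and, in part, the single ligands, and the Ctrl value of a peak enters all 8 with the same sign.

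At the Syk peak 3.4 kb past the second start, all 8 pairs were called below 0, from -1.45 ± 0.20 in PL (adjusted p = 2.86e-09) to -0.61 ± 0.21 in ScG (0.03). At the Clec4e 3′ peak all 8 were also called, from -2.11 ± 0.32 in ZcG (4.05e-07) to -1.25 ± 0.29 in ScG (0.000725). At the Clec4e start 7 of 8 were called, the deepest in PS (-1.58 ± 0.18, 6.4e-13), where P held 46.1 and 43.8 CPM, S 26.4 and 30.7, and the pair 28 and 27.3. The pair libraries there lay within the range of SeV alone and below both P libraries. The Clec4e peak 2.76 kb inside the gene was called in 7 of 8, ScG being the exception.

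Clec7a went the opposite way past its 3′ end, where all 8 pair values were above 0 and LH (1.62 ± 0.49, adjusted p = 0.0285) and PS (1.86 ± 0.51, 0.0138) were called. There the level had fallen under each single ligand, so a value above 0 means that the pair fell less than the sum of its parts. The LH and PS calls at Clec7a were lost without Ctrl replicate 1 (1.33 and 1.57) and without other libraries, and the LH call under total counts (1.22). Without Ctrl replicate 1 the Syk peak also lost its LH call (-0.46) and its ScG call (-0.39).

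**Figure D5:**
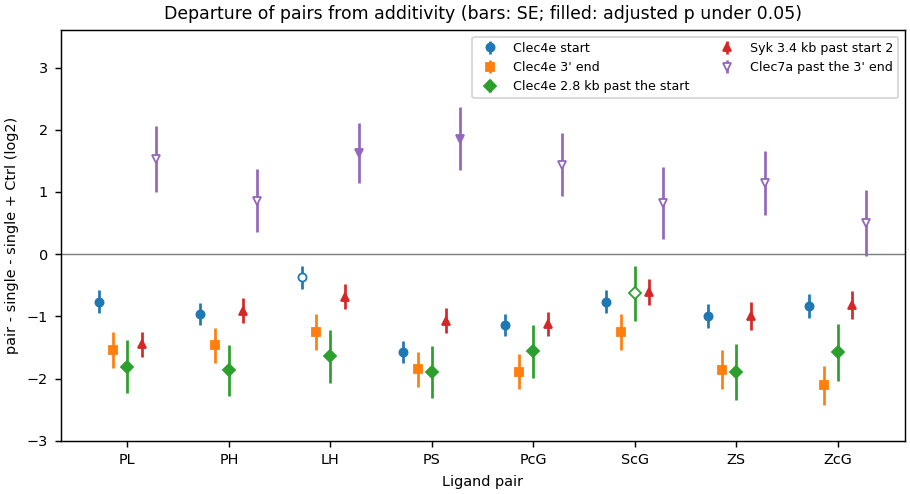
Departure of each of the 8 pairs from the sum of its 2 single ligands (log2; bars, SE; filled, adjusted p under 0.05) at 5 member peaks, with a line at 0. The Syk and Clec4e points lie below 0 in all 8 pairs, and the points of the peak past the Clec7a 3′ end lie above 0 in all 8.

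The rest of the pathway was read at start sites. Of 49 other genes of the pathway, 44 had a peak over an annotated start or gene end, with 47 peaks tested, and 36 of them differed over the 18 groups (76.6%, beside 62.5% of all tested peaks). In P, 6 were called higher and 5 lower (23.4%, beside 20.5%). Both background shares are over all tested peaks and not over start sites alone, so these shares do not set the pathway apart. By group, the test over all groups called 10 of 12 adaptor and kinase peaks, 4 of 7 of the Card9 partners, 5 of 6 brakes, 5 of 7 in the calcium and early response arm, 3 of 5 targets and 9 of 10 other C-type lectins.

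Lyn, a Src family kinase that phosphorylates receptor tails, was lower in 17 of 17 comparisons (-1.12 to -0.45), with 33.0 and 29.0 CPM in Ctrl, and under total counts in 9, all 17 signs staying below 0. Src, another kinase of that family, was higher in cG and ZS (0.85 and 0.97) and lower in LH (-0.94), and Fcer1g, the adaptor chain of Mincle and Dectin-2, was lower in ZS and ZcG (-0.47 and -0.49). Under total counts Src was called higher in 8 and lower in none, and Fcer1g higher in 2 and lower in 1, with 11 of its 17 signs above 0 against 4 under TMM. Bcl10, which joins Card9 in a signalling complex, was lower in 15 (-0.61 to -0.09 over the 17, Ctrl 161 and 144 CPM), but in 2 under total counts. Map3k7, the kinase TAK1 downstream of it, was lower in 10 under TMM, and under total counts 7 of its 17 signs were above 0. Traf6, a ubiquitin ligase of the same arm, differed over all groups but was called in no comparison with Ctrl under TMM and higher in 6 under total counts. Among the brakes, Cblb, a ubiquitin ligase that limits Syk signalling, was lower in 15 under TMM and 2 under total counts, and Ptpn6, the phosphatase SHP-1, was higher in P (0.43, adjusted p = 5.84e-05) and lower in PScG and ZScG under TMM. Under total counts Ptpn6 was called higher in 11 and lower in none, and under loess higher in 8 and lower in 1. Cd37, a tetraspanin that binds Dectin-1, was lower in S and ZScG (-0.40 and -0.61), but higher in 3 and lower in 1 under total counts, where 13 of the 17 signs were above 0 against 3.

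In the calcium and early response arm, Egr1 was higher in 10 of 17 comparisons, up to 0.81 in ZS, which are the groups with SeV, cGAMP or zymosan, but in all 17 under total counts or loess. Nfatc1, the NFAT factor, was higher in 6 (up to 1.29 in ScG) and Rcan1, an inhibitor of calcineurin, was higher in 3 and lower in 1 (6 and none under total counts). Among the targets, Il23a, a subunit of IL-23, was higher in 16 of 17, by 1.4 in P (adjusted p = 2.32e-15), Ptgs2 in 10 and Il1b in 6, and no target was called lower. The 10 tested peaks of other C-type lectins went both ways. In P 2 were called higher and 0 lower (20.5% of all peaks were called), in S 2 and 3 (27.9%), and in ZScG 0 and 5 (32.3%). The 3 with the lowest p over all groups, which lie in the Clec4 cluster, were called lower: Clec4b1 in 13 (to -2.00 in ZScG), Clec4a2 in 11 (to -1.48 in ZScG) and Clec4a4 in 10 (to -1.39 in ZcG). Under total counts these 3 were lower in 9, 6 and 9, with Clec4a2 and Clec4a4 each called higher in 1.

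Finally, the peaks elsewhere in the genome whose group means ran most like each member's leading peak were listed, as a description over 18 group means that share libraries and depth. Where such a peak lay outside a gene, the distance to the nearest one is given. For the Syk peak they were peaks in Runx1 (Pearson r = 0.962) and 9030 bp from Wfdc21 (0.953). For the Clec7a 3′ flank they were peaks in Creb3l1 (0.950) and 209638 bp from Nrp1 (0.939). For the Clec4e start they were 146546 bp from Tnfaip3 (0.929) and in Dbn1 (0.924), and for the Clec4e 3′ peak 30436 bp from Metrnl (0.903) and in H2-M2 (0.901). For Egr3 they were 98267 bp from Hrh4 (0.937) and in Hcfc1r1 (0.936), and for Egr2 in Stk39 (0.918) and Rragd (0.917). For the peak between Clec4n and Clec4d they were in Igf1r (0.900) and Ube2l3 (0.897), and for Card9 in Trim65 (0.822) and Man2c1 (0.822). The r values for Card9 were the lowest of these.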

How the data were processed

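ATAC-seq was done on 36 libraries in 18 groups of 2. The authors deposited a table of read counts per peak and a peak list. The submitters' processing notes name Bowtie2 2.2.9, MACS2 (with 1.4), bedtools, featureCounts and build mm10, without their roles. All libraries were counted over this 1 list.

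The peak on the mitochondrial genome was left out, and peaks were kept by edgeR's filterByExpr with a minimum count of 10 (119464 of 119751 kept, 286 removed). The counts were fitted with edgeR 4.0.16 (limma 3.58.1, R 4.3.3), with TMM scaling, 1 mean per group and a robust quasi-likelihood test. The fit left 18 residual degrees of freedom, with a common dispersion of 0.02. Benjamini-Hochberg adjustment ran over all tested peaks of each comparison, and an adjusted p under 0.05 is a call. Levels are CPM on TMM-scaled libraries. The fit was tested on simulated data.

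Named peaks are those over an annotated start, or either gene end where no strand was known, and the 2 others of each window with the lowest p over all groups. From each pathway list up to 3 start-site genes with the lowest p are named. The members and lists were chosen with earlier results of these data known. Alternatives were DESeq2 1.42.0, its size factors, total counts, loess offsets, no filter, the mitochondrial peak kept, the replicate block and leaving out each library.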

Additional observations from a re-analysis of the deposited data

Results flagged for a closer look

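Each of the 8 pairs held members whose log2 change differed from the sum of its single ligands by the interaction term of the edgeR fit, so that the effect of 1 ligand differed with and without the other. These were 12 peaks in PL, 4 in PH, 5 in LH, 7 in PS, 11 in PcG, 11 in ScG, 4 in ZS and 5 in ZcG. As shares of the 84 tested members they were 14.3%, 4.76%, 5.95%, 8.33%, 13.1%, 13.1%, 4.76% and 5.95%. Over all tested peaks the shares were 6.75%, 1.55%, 4.88%, 4.59%, 3.27%, 14.4%, 3.43% and 2.49%. The member share in ScG was thus below that of all peaks, and those in LH and ZS were near it.

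The values below do not list every called pair of a peak. Of the 8 pairs, 7 were called at the Clec4e start, 8 at its 3′ peak and 7 at the peak 2.76 kb inside it. All 8 were called at the Syk peak 3.4 kb past the second start. At the Clec4e start the departure was -0.957 in PH and -1.579 in PS. At the Clec4e 3′ peak it was -1.255 in LH, -1.891 in PcG, -1.246 in ScG, -1.858 in ZS and -2.11 in ZcG, and at the peak 2.76 kb inside Clec4e it was -1.9 in PS. At the peak between Clec4n and Clec4d it was -1.025 in ScG.

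At Clec7a, the peak past the 3′ end departed by 1.623 in LH and 1.858 in PS, the peak 1.89 kb upstream by -1.372 in PL and the peak 5.79 kb upstream by -2.863 in PL. At Syk, the peak 3.4 kb past the second start departed by -1.45 in PL, -0.681 in LH and -0.607 in ScG, and the peak 39.5 kb past it by -0.712 in PL, -0.702 in PcG and -0.805 in ScG. The Card9 start departed by -0.717 and the other Card9 end by -0.855 in ScG, and the wide Egr2 peak by 0.633 in PL.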

How the results depend on the processing

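Of 225 single-peak comparisons, scaling by total counts changed the call or sign in 44 (19.6%), loess in 15, DESeq2 in 12 and DESeq2's size factors in 3. Leaving out 1 library changed 239 of 988 (24.2%). Under total counts, the members called against Ctrl were 30 in L, 30 in S, 31 in cG and 37 in PcG. Calls were 20 for ZcG against cG, 1 for ZScG against ScG, 23 for P against Z, 13 for PS against ZS, 27 for PcG against ZcG and 12 for PScG against ZScG. The pair tests called 19 in PL, 9 in PH, 12 in LH, 15 in PS, 32 in ScG, 8 in ZS and 14 in ZcG. No share of all peaks under total counts is set beside these counts, so they do not set the members apart. The median of all peaks moved as well. Under total counts it was 0.452 in L, 0.446 in PcG and 0.483 for PcG against ZcG. It was -0.383 for ZcG against cG and -0.648 in the ScG pair test. ZScG against ScG also called 1 under loess offsets, with DESeq2, and in a fit of the 5 groups with a high mitochondrial share, an alternative chosen after seeing the data, and DESeq2 called 3 in the LH pair test. The cause was not tested.

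Signs turned at the Clec4e 3′ peak in PScG against ZScG (0.078 under total counts, and -0.452 to 0.035 leaving out 1 library, the highest without ZScG replicate 2), at the Syk peak 3.4 kb past the second start in ZScG (-0.197 to 0.311 leaving out 1 library, below 0 without Ctrl replicate 1 or, at -0.081, ZScG replicate 2), and at the wide Egr2 peak under total counts (0.101 in PcG, 0.002 in PScG).

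Leaving out 1 library at a time, with the lone library assumed to vary like the other groups, gave 20 to 24 calls in P, 11 to 13 in L, 4 to 9 in H, 11 to 15 in S, 12 to 17 in cG and 4 to 6 in Z. It gave 15 to 18 in PL, 14 to 21 in PH, 11 to 12 in LH, 16 to 25 in PS, 14 to 19 in PcG, 14 to 17 in ScG, 11 to 14 in ZS and 11 to 13 in ZcG. The triplets gave 14 to 18 in PLH, 17 to 26 in PScG and 15 to 20 in ZScG. PAM against zymosan gave 6 to 11 alone, 2 to 5 beside SeV, 6 to 9 beside cGAMP and 2 to 3 beside both, and added zymosan gave 0 to 1, 1 to 2 and 0 to 2. The pair tests gave 7 to 12 in PL, 3 to 6 in PH, 2 to 4 in LH, 4 to 8 in PS, 7 to 9 in PcG, 8 to 11 in ScG, 3 to 5 in ZS and 1 to 5 in ZcG, and the test over all groups 45 to 50.

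Same-numbered libraries of different groups did not deviate together (r of -0.040 to 0.030 over 153 pairs of groups), so no pairing by number was seen in the levels. Whether equal numbers share an animal, culture or day cannot be told from this. The replicate block changed 1 of the 225 calls, the low Egr2 peak in ZScG (1.571).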
